A study of Mus musculus with 12 samples.

Results

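Long noncoding RNAs are transcripts that are not translated into protein, and many of them act in the nucleus. The 8 described here are Malat1, Neat1, Pvt1, Miat, Rmst, Sox2ot, Kcnq1ot1 and Pantr1. They were listed by symbol, with earlier results of these data known. They come from 54735 gene symbols, of which 9586 are long noncoding genes in GENCODE release M21. All 8 were found in every library. RNA was sequenced from the pallium, the tissue at the top of the developing forebrain from which the cortex grows, of 12 mouse embryos of strain C57/Bl6 at stage E13.5, with 4 embryos in each of 3 genotypes. Control embryos carried Rnu11wt/flx::Trp53wt/wt::Emx1-Cre+, so they keep 1 wild-type Rnu11 allele and are heterozygous for its deletion. The cKO embryos carried Rnu11flx/flx::Trp53wt/wt::Emx1-Cre+, and the dKO embryos carried Rnu11flx/flx::Trp53flx/flx::Emx1-Cre+. All 12 embryos carried Emx1-Cre, which deletes floxed alleles in pallial progenitors and the cells they give rise to, so microglia, vessels and other cells in the dissected tissue keep both genes. No group without Cre and no group with Trp53 deleted alone was analysed here.

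Rnu11 is the gene for U11, an RNA that recognises the 5′ splice site of a rare class of introns as part of the minor spliceosome. Trp53 encodes p53, a transcription factor that is stabilised by cell stress and DNA damage. Malat1 and Neat1 lie next to each other in the genome and mark separate nuclear bodies: Malat1 gathers in speckles, which store splicing factors, and Neat1 is the scaffold on which paraspeckles form. Neat1 and Pvt1 are known p53-responsive genes, and Pvt1 lies downstream of Myc, the gene for a growth-promoting transcription factor. Miat, also called Gomafu, is a nuclear RNA of neurons that binds splicing factors through short repeats. Rmst, Sox2ot and Pantr1 are neural RNAs linked with transcription factor genes of neural progenitors. Kcnq1ot1 is transcribed from the paternal chromosome only and silences neighbouring imprinted genes, among them Cdkn1c, which encodes an inhibitor of cell division.

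The Miat repeats are shown because they are what ties this RNA to splicing: each copy of TACTAAC (in capitals, written as DNA) has the letters of the branch point that the splicing factor SF1 recognises in introns. A search of the transcript strand found the motif 6 times in the longest Miat transcript of 9163 bases, each time in exon 7 of 7. The copies lie in 2 short stretches, given 5′ to 3′ from the GENCODE transcript, which is on the minus strand of GRCm38.
Miat stretch a, chr5:112217309-112217460: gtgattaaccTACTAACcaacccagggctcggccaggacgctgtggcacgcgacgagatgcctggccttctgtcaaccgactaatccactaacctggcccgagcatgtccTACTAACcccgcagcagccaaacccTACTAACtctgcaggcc
Miat stretch b, chr5:112216752-112216812: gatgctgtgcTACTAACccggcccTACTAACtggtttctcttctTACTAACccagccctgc

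Of 131 long noncoding genes whose longest transcript has at least 5000 bases, 24 (18.3%) held the motif at all and 1 held it as often as Miat did, which is Miat itself. Among the other members, Kcnq1ot1 held 4 copies in 93092 bases and Neat1 held 1 copy in 20771 bases, and the motif was absent from the transcripts of Malat1, Pantr1, Pvt1, Rmst and Sox2ot that were searched. Sequence around the start site, from 250 bases before to 50 after, was found in the RefSeq promoter table for 3 members, Malat1, Miat and Kcnq1ot1. These windows were searched on both strands. The Kcnq1ot1 promoter is shown because it lies in the imprinting control region of its domain. It held 3 copies of CCAAT (in capitals), a motif found in 37.4% of 32851 promoter windows of the same length.
Kcnq1ot1 promoter, GRCm38.p6, minus strand, chr7:143296498-143296797: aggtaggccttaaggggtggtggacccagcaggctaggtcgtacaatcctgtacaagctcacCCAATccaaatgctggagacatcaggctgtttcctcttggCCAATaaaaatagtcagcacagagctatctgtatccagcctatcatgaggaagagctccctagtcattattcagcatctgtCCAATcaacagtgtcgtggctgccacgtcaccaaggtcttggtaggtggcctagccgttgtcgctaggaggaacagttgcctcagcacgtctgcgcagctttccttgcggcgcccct

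No CCAAT was found in the Malat1 and Miat windows. The p53 half-site was found in 8.36% of all windows and in none of these 3, which says only that its letters are not in these 300 bases.

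The deposited values are TPM, a transcript abundance scaled for gene length and library sum, so levels can be set side by side between genes. They keep no sequencing depth, and the depth of each library is unknown. The targeted genes followed the genotype labels: Rnu11 ranged from 521 to 724 TPM in the controls, 115 to 159 in cKO and 142 to 199 in dKO, and Trp53 from 2.63 to 6.37 in the controls, 3.92 to 4.83 in cKO and 0.920 to 1.49 in dKO. The library of control embryo 1 had the highest Trp53 value, and that of dKO embryo 2 had the fewest genes above 0, 24574 against 25418 to 29300 in the other libraries. Leaving both out changed none of the counts of members called. Small structural RNAs took most of every library, and protein-coding genes took 14.6% to 16.3% in the controls, 16.1% to 20.0% in cKO and 14.4% to 15.5% in dKO. Over the 11764 genes tested, the median difference in log2(TPM + 1) was 0.25 when cKO was set against control, -0.26 when dKO was set against cKO, and -0.01 between dKO and control. Differences are therefore given as deposited and again after a shift of each library, called median-shift centring below. For each library, the deviation of every tested gene from its mean over the 12 libraries was taken, and the median deviation was subtracted. Nothing in the labels says whether embryos share a litter, and p-values measure only the spread between these embryos.

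In control embryos the levels ran in the order Malat1, Pantr1, Rmst, Miat, Sox2ot, Kcnq1ot1, Pvt1 and Neat1. Malat1 stood at 754 ± 93.7 TPM (mean ± SD, n = 4), the second highest of all long noncoding genes over the 12 libraries. Pantr1 stood at 123.5 ± 15.6 TPM, Rmst at 98.5 ± 4.16, Miat at 21.8 ± 1.87, Sox2ot at 2.29 ± 0.292, Kcnq1ot1 at 1.69 ± 0.335, Pvt1 at 0.518 ± 0.0999 and Neat1 at 0.468 ± 0.157. The ranges of Sox2ot and Kcnq1ot1 overlapped among control embryos, as did those of Pvt1 and Neat1, and the other neighbours in this order did not overlap. In cKO the order of Pvt1 and Kcnq1ot1 was exchanged, with Pvt1 between 2.05 and 2.75 TPM and Kcnq1ot1 between 1.71 and 2.63 TPM, and these ranges overlapped. Neat1, with a mean of 0.672 TPM over all libraries, fell below the filter of 1 TPM that the fit across genes used, and the other 7 members passed it. Pvt1 passed only through its cKO values, so a difference in cKO was a condition of its being tested.

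**Figure D1:**
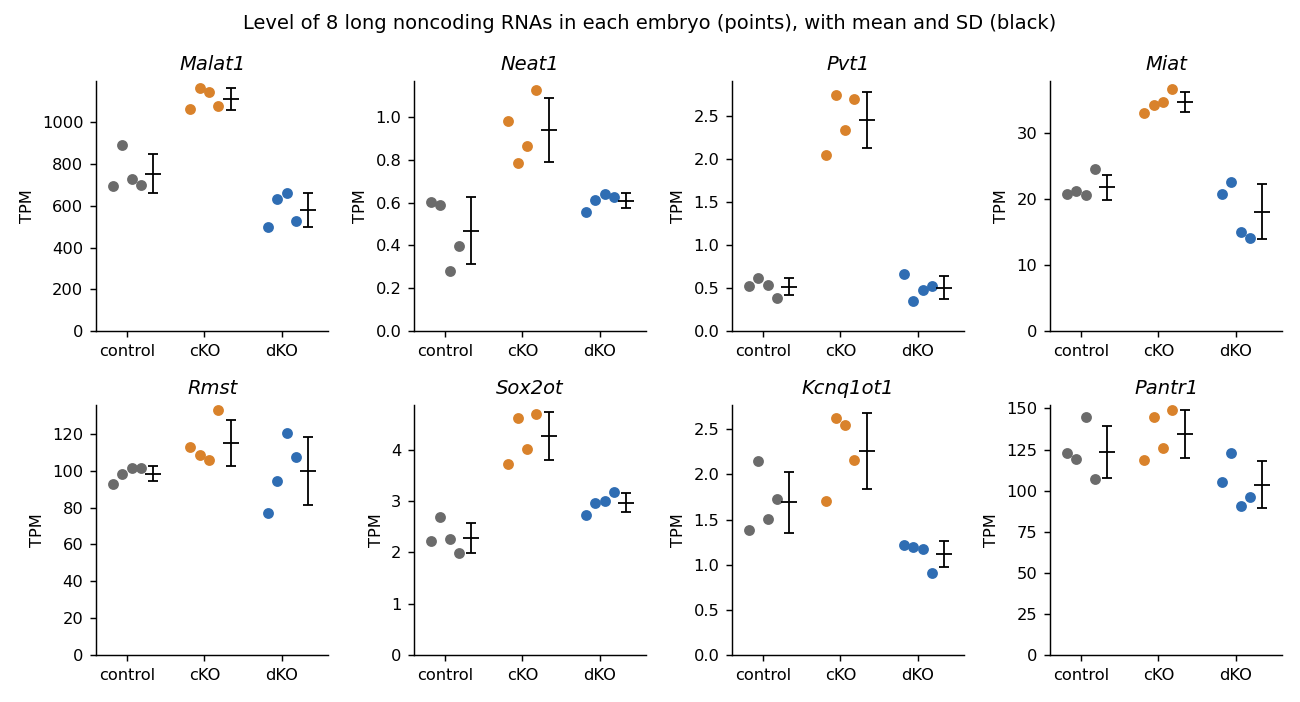
TPM (y axis, from 0, a separate scale for each gene) of the 8 RNAs in control, cKO and dKO embryos; each point is 1 embryo, and the black bar is the mean with 1 SD (n = 4). Pvt1 lies between 2.05 and 2.75 TPM in cKO and at no more than 0.665 in the other genotypes, while the Pantr1 points of the 3 genotypes overlap.

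In cKO embryos, 4 of the 7 tested RNAs were higher than in control by limma with Benjamini-Hochberg adjustment: Pvt1, Sox2ot, Miat and Malat1. None was lower. As deposited, 34.3% of all tested genes and 43.4% of the 389 tested long noncoding genes were called higher in this comparison, and 35.4% of genes in either direction. After centring, 2 of the 7, Pvt1 and Sox2ot, were called higher, against 3.72% of all genes. With the filter lowered to 0.5 TPM, an alternative chosen after seeing the data, all 8 were tested and the mean of Pvt1 was above the filter in every genotype. Then 5 of the 8 were higher in cKO, where 33.6% of genes were, and 2 of the 8 after centring, where 3.44% of genes were. The median log2 difference of the 8 was 0.49. In dKO embryos, 0 of the 7 differed from control by limma at the adjusted threshold of 0.05, where 5.19% of all genes were called; at an unadjusted p under that value 1 was higher (Sox2ot) and 2 were lower (Malat1 and Kcnq1ot1), and the same 3 had an exact permutation p of 0.0286. After centring it was again 0 of the 7, where 8.43% of all genes were called. Against cKO, 6 of the 7 were lower in dKO, all but Rmst, where 38.8% of all genes and 32.4% of tested long noncoding genes were called lower. After centring, 3 of the 7 were lower (Pvt1, Malat1 and Miat), against 3.83% of all genes. With the filter at 0.5 TPM these were 7 of the 8 against 38% of genes, and 3 of the 8 after centring against 3.72%. Without regard to the fit, 6 of the 8 members were higher in every cKO embryo than in every control embryo, as were 32.7% of tested genes, and 6 of the 8 were lower in every dKO than in every cKO embryo, as were 32.8% of tested genes. After centring these were 3 members against 8.74% of genes and 4 members against 7.38% of genes. In dKO against control, Sox2ot was higher and Malat1 and Kcnq1ot1 were lower without overlap, where 5.14% of tested genes were higher and 8.44% were lower. After centring the separation of Sox2ot was lost and those of Malat1 and Kcnq1ot1 were kept, where 7.28% of genes were lower; after rescaling to an equal protein-coding sum only that of Kcnq1ot1 was kept. The comparisons of cKO with control and of dKO with cKO share the same 4 cKO embryos.

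**Figure D2:**
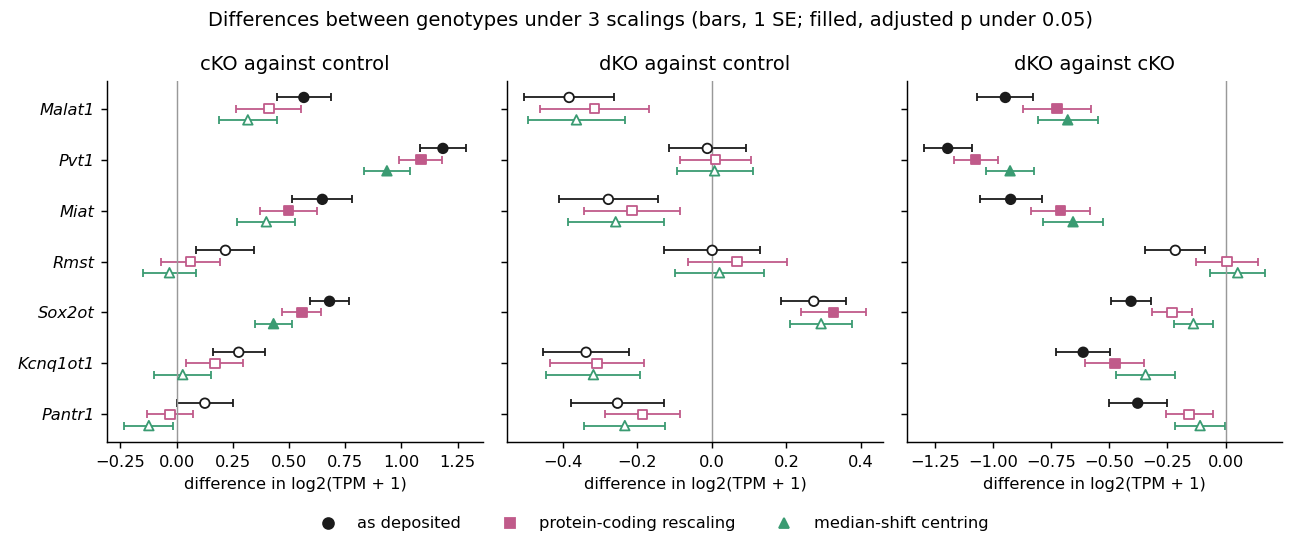
Difference in log2(TPM + 1) between genotypes (x axis) for the 7 tested RNAs (y axis), 1 panel for each comparison; circles are values as deposited, squares after rescaling to an equal protein-coding sum, triangles after median-shift centring, bars are 1 SE, and filled symbols have an adjusted p under 0.05. Pvt1 is called in cKO against control and in dKO against cKO under all 3 scalings, and Rmst in none.

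Pvt1 (chr15:62037986-62378096, plus strand) had values of 0.531, 0.622, 0.535 and 0.382 TPM in the control embryos. Its values were 2.05, 2.75, 2.33 and 2.70 TPM in the cKO embryos, and 0.665, 0.350, 0.483 and 0.530 TPM in the dKO embryos. All 4 cKO embryos were above all 8 others, and the control and dKO embryos overlapped. The mean TPM in cKO was 4.75 times that in control. In log2(TPM + 1), where the added 1 shrinks the change of a gene this low, Pvt1 rose by 1.18 (SE 0.103, adjusted p = 1.87e-05 by limma). With no filter on low values, when its being tested did not rest on cKO, the adjusted p was 4.98e-05. After centring the difference was 0.94 (adjusted p = 0.000172). In dKO it was 1.20 lower than in cKO (log2 difference -1.20, adjusted p = 2.15e-05, or 4.70e-05 with no filter), and -0.93 after centring (adjusted p = 0.000307). Between dKO and control the difference was -0.01 as deposited and 0.01 after centring, with an adjusted p of 0.968 as deposited.

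Myc, the protein-coding gene upstream of Pvt1, was below the filter, and its means were 0.672 TPM in the controls, 1.01 in cKO and 0.827 in dKO, with overlapping ranges. The difference in log2(TPM + 1) between Pvt1 and Myc within a library ranged from -0.39 to 0.10 in the controls, 0.50 to 1.07 in cKO and -0.83 to 0.04 in dKO. The cKO embryos were above all others. It was 0.92 higher in cKO than in control and 1.05 lower in dKO than in cKO (difference -1.05), each with an exact two-sided permutation p of 0.0286, the smallest that 70 assignments of 4 against 4 embryos allow. Over the 15 such tests on 5 gene pairs, the smallest Benjamini-Hochberg adjusted p was 0.0714, so none passed 0.05.

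Of 5803 genes that averaged 5 TPM or more, the 3 whose centred values were most like those of Pvt1 over the 12 libraries were Aen (Pearson r = 0.97), which encodes a nuclease induced by p53, Ccng1 (r = 0.97), which encodes cyclin G1, and Mdm2 (r = 0.94), which encodes the ubiquitin ligase that degrades p53. These correlations describe 12 libraries in which group and library scaling are shared by all genes, so no p is given. Of 20 listed p53 target genes, with no filter applied, 19 were higher in every cKO than in every control embryo, against 32.7% of tested genes, and 16 after centring, against 8.74%. The median log2 difference of the 20 was 0.99. The filter kept 16 of them, 4 of which (Cdkn1a, Eda2r, Phlda3 and Sesn2) passed only through cKO. Ccng1 rose from 8.28 TPM in the controls to 47.6 in cKO and was at 6.95 in dKO, and Cdkn1a, which encodes the cell cycle inhibitor p21, was at 0.597, 3.61 and 0.425 TPM. In dKO against cKO, 19 of the 20 were lower without overlap, against 32.8% of tested genes.

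Neat1 (chr19:5824708-5845478, minus strand) was low in every embryo. It was listed at 0.603, 0.590, 0.279 and 0.399 TPM in the controls, 0.979, 0.783, 0.866 and 1.13 TPM in cKO, and 0.557, 0.614, 0.639 and 0.626 TPM in dKO. The lowest cKO embryo was above the highest control and dKO embryos, and the control and dKO ranges overlapped. The mean in cKO was 2.01 times that in control. On the log2(TPM + 1) scale the difference from control was 0.40 in cKO, and that of dKO from cKO was -0.27, each with an exact two-sided permutation p of 0.0286. Non-overlap of this kind was common at this level: of the 2313 genes with a mean between 0.5 and 1 TPM, 32.7% were higher in every cKO embryo than in every control embryo. After centring the 3 groups overlapped. The differences were then 0.16 between cKO and control (exact permutation p = 0.200) and 0.00 between dKO and cKO (exact permutation p = 0.943). Centring moves every gene in a library by the same amount, which weighs heavily on a gene this low. Rescaling to an equal protein-coding sum instead kept each cKO embryo above all control and all dKO embryos. The log2 difference was then 0.33 from control to cKO and -0.17 from cKO to dKO (exact permutation p = 0.0286 each). When the filter was lowered to 0.5 TPM, an alternative chosen after seeing the data, limma called Neat1 higher in cKO than in control as deposited (adjusted p = 0.00713) but not after centring (adjusted p = 0.356).

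The genes nearest to Neat1 in pattern were Aasdh (r = 0.87), Ttr (r = 0.85), which encodes transthyretin and is a marker of the choroid plexus, and Polr3a (r = 0.83). The summed level of the 7 hem and choroid plexus markers, Ttr among them, ranged from 44.5 to 101 TPM in the controls, 85.9 to 252 in cKO and 71.3 to 290.3 in dKO. Their part in the Neat1 values was not tested.

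Of 26 listed genes for paraspeckle proteins, all passed the filter. As deposited, 3 were higher in cKO than in control, Ewsr1, Cpsf6 and Hnrnpr, where 34.3% of all genes were. None of the 26 was called after centring, when 1 was higher and 3 were lower at an unadjusted limma p under 0.05. The list's median log2 difference was 0.19 as deposited, below the 0.25 of all genes. Nono and Sfpq, which encode core proteins, stood at 74.2 and 47.0 TPM in the controls, 74.2 and 59.8 in cKO, and 58.5 and 38.3 in dKO. In dKO against cKO, 13 of the 26 were lower as deposited, where 38.8% of all genes were, and 0 after centring, where 3.83% were (unadjusted, 1 higher and 8 lower). Relative to control, 2 were lower in dKO as deposited, Cirbp and Hnrnpa1, and 4 after centring, where 3.4% and 4.69% of all genes were lower.

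Malat1 (chr19:5795690-5802672, minus strand) was the most abundant member in every embryo. It was at 695, 893, 729 and 700.0 TPM in the controls, 1062, 1165, 1145 and 1076 in cKO, and 497, 632, 662 and 527 in dKO. The 3 genotypes did not overlap, with cKO above control and control above dKO. The mean in cKO was 1.47 times that in control, and the mean in dKO was 0.521 times that in cKO. Malat1 rose by 0.57 in cKO (SE 0.121, adjusted p = 0.00557). After centring the difference was 0.32 (adjusted p = 0.181), and after rescaling to an equal protein-coding sum it was 0.41 (adjusted p = 0.0837), so the call was lost under both. In dKO against cKO the log2 difference was -0.95 (adjusted p = 0.000319), the 18th largest of the 389 long noncoding genes, and it was still called after centring (-0.68, adjusted p = 0.0123). Relative to control, the log2 difference in dKO was -0.38 (adjusted p = 0.0910). Leaving out control embryo 2, the highest control value, changed no Malat1 call.

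Within a library, the difference in log2(TPM + 1) between Neat1 and Malat1 ranged from -9.16 to -8.76 in the controls, -9.35 to -8.99 in cKO and -8.66 to -8.32 in dKO. The dKO embryos were above all others, by 0.52 against control and 0.68 against cKO on average (exact permutation p = 0.0286 each, adjusted p = 0.0714). With a pseudocount of 0.1 in place of 1 the dKO embryos still lay above the controls, by 0.75, but overlapped with cKO, with a difference of 0.41 (exact permutation p = 0.0857). In cKO against control the difference was -0.16 with overlapping ranges, and it turned to 0.34 with the smaller pseudocount.

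**Figure D3:**
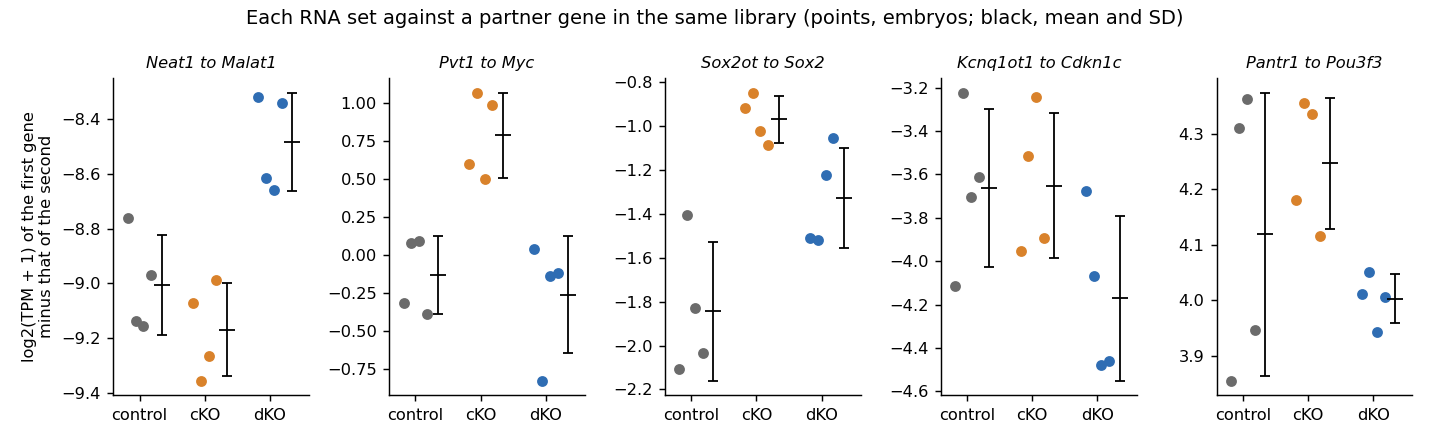
Difference in log2(TPM + 1) between an RNA and a neighbouring or partner gene in the same library (y axis, a separate scale for each pair) in control, cKO and dKO embryos; each point is 1 embryo, and the black bar is the mean with 1 SD (n = 4). The cKO embryos stand above all others for Pvt1 to Myc, and at this pseudocount the dKO embryos stand above all others for Neat1 to Malat1.

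Of 19 listed genes for speckle proteins and proteins that bind these RNAs, 4 were higher in cKO than in control as deposited, where 34.3% of all genes were: Son, which encodes a core scaffold of speckles, Srsf5, Pnn and Ddx39b. None was called after centring, when 2 were higher and 2 were lower at an unadjusted limma p under 0.05. Srsf1, which encodes a splicing factor of speckles, was lower in dKO than in both other genotypes. It was at 114 TPM in the controls, 127 in cKO and 67.0 in dKO (log2 difference of dKO against control -0.76, adjusted p = 0.00232, and -0.74 after centring). The genes nearest to Malat1 in pattern were Ralgapa1 (r = 0.96), Tnik (r = 0.95) and Nbea (r = 0.95).

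Gm37376, a short transcript of unclassified type on the strand opposite to Malat1 and within it (chr19:5801941-5802393), ranged from 25.8 to 74.4 TPM in the controls, 94.8 to 118 in cKO and 7.05 to 37.1 in dKO. Its cKO embryos were above all others. Whether the counting used strand is not given in the sources used here, so reads of overlapping genes cannot be told apart, and this holds for every overlap named below.

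Miat (chr5:112213228-112229395, minus strand) was at 20.8, 21.3, 20.6 and 24.6 TPM in the controls. It was at 33.1, 34.4, 34.7 and 36.8 TPM in cKO, and at 20.8, 22.6, 15.0 and 14.2 TPM in dKO. All cKO embryos were above all others, and the dKO values fell into a higher pair within the control range and a lower pair below every control embryo. Miat rose by 0.65 in cKO (SE 0.134, adjusted p = 0.00479), to 1.59 times the control mean. After rescaling to an equal protein-coding sum it was still called (0.50, adjusted p = 0.0264), and after centring it was not (0.40, adjusted p = 0.0919). From cKO to dKO the log2 difference was -0.93 (adjusted p = 0.000657), and -0.66 after centring (adjusted p = 0.0139). From control to dKO it was -0.28 (adjusted p = 0.272).

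Of the genes for proteins known to bind the Miat repeats, Sf1 stood at 11.7 TPM in the controls, 11.6 in cKO and 10.03 in dKO, and Qk at 43.6, 47.7 and 37.2, with no call in any comparison. Celf3, a neuronal splicing regulator, stood at 2.98, 4.54 and 2.23 TPM, and in dKO it lay below cKO as deposited (log2 difference -0.81, adjusted p = 0.00598) but not after centring (adjusted p = 0.0888). The genes nearest to Miat in pattern were Wdr13 (r = 0.94) and Mdm4 (r = 0.91), which encodes an inhibitor of p53.

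Annotated transcripts overlap Miat on both strands. Gm26953, on the opposite strand, ranged from 0.873 to 1.41 TPM in the controls, 1.61 to 2.51 in cKO and 0.909 to 1.31 in dKO, so cKO was above both. Gm27627, a small RNA model on the same strand that overlaps stretch a of the repeats, had means of 26.7, 47.8 and 31.2 TPM with overlapping ranges. It was called higher in cKO than in control as deposited (log2 difference 0.91, adjusted p = 0.0322) and not after centring (0.66, adjusted p = 0.222). The protein-coding neighbour Cryba4, which encodes a lens crystallin, was below the filter and ranged from 0.130 to 0.371 TPM in the controls, 1.40 to 2.17 in cKO and 0.264 to 0.630 in dKO. Its cKO embryos were above all others. Tpst2, the next neighbour but one, was higher in cKO than in control as deposited (log2 difference 0.33, adjusted p = 0.0386) and not after centring (0.08).

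Sox2ot (chr3:34104270-34682619, plus strand) was at 2.22, 2.69, 2.25 and 1.99 TPM in the controls, 3.74, 4.63, 4.03 and 4.71 in cKO, and 2.73, 2.96, 3.01 and 3.18 in dKO. The 3 genotypes did not overlap, and dKO lay between control and cKO. Sox2ot rose by 0.68 in cKO (SE 0.0875, adjusted p = 0.000368), and this held after centring (0.43, adjusted p = 0.00905). The mean in cKO was 1.87 times that in control. Between cKO and dKO it fell by 0.41 as deposited (adjusted p = 0.00475), while after centring the difference was -0.14 (adjusted p = 0.346). Between dKO and control the log2 difference was 0.27 (adjusted p = 0.0952), and it passed the threshold after rescaling to an equal protein-coding sum (0.33, adjusted p = 0.0379).

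Sox2, which encodes a transcription factor that maintains neural progenitors, lies inside Sox2ot on the same strand. Its means were 10.9 TPM in the controls, 9.36 in cKO and 9.01 in dKO, and its log2 difference in cKO was -0.19 (adjusted p = 0.236) and, after centring, -0.44 (adjusted p = 0.0182). The difference in log2(TPM + 1) between Sox2ot and Sox2 within a library ranged from -2.11 to -1.41 in the controls and from -1.09 to -0.85 in cKO, without overlap (exact permutation p = 0.0286, adjusted p = 0.0714). In dKO it ranged from -1.52 to -1.05 and overlapped with both. Fxr1 and Dnajc19, protein-coding genes on the other side of Sox2ot, were not called in cKO against control. The genes nearest to Sox2ot in pattern were Rabep1 (r = 0.92), Sgce (r = 0.90) and Gabarap (r = 0.90).

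Rmst (chr10:92071037-92165170, minus strand), which can bind the SOX2 protein and takes part in neuron formation, was at 92.7, 98.3, 102 and 101 TPM in the controls. It was at 113, 108, 106 and 133 TPM in cKO, and at 76.9, 94.7, 120.3 and 108 TPM in dKO. The cKO embryos lay above the control embryos, and the dKO embryos spread from below all controls to above all but 1 cKO embryo. Rmst was not called in any comparison. In cKO against control the log2 difference was 0.22 as deposited (adjusted p = 0.193) and -0.03 after centring. In dKO against control it was 0.00 (adjusted p = 1.00), and in dKO against cKO -0.22 (adjusted p = 0.191), or 0.05 after centring. Nedd1, the nearest protein-coding gene, likewise had no call. Mir135a-2 and Mir1251, microRNA genes within Rmst, were listed at 0 in every library. Rmst also holds 8 small RNA models on its own strand. In dKO against control, limma called Gm27753 lower (log2 difference -2.89, adjusted p = 0.00246) and Gm27588 lower (-1.30, adjusted p = 0.0132). Gm27999 was called higher (2.03, adjusted p = 0.0135), and the other models had no call in this comparison. All 3 calls held after centring. As deposited, 5.19% of all genes were called there.

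Pantr1 (chr1:42590782-42694842, minus strand), whose name marks it as adjacent to Pou3f3, was at 123, 119, 145 and 107 TPM in the controls. It was at 119, 145, 126 and 149 TPM in cKO, and at 105, 123, 90.4 and 95.9 TPM in dKO. The 3 genotypes overlapped. In cKO against control the log2 difference was 0.13 (adjusted p = 0.427) and, after centring, -0.12. In dKO against cKO it fell by 0.38 as deposited (adjusted p = 0.0323), and this call was lost after centring (-0.11, adjusted p = 0.580), with the replicate number as a block (adjusted p = 0.0647) and when any of cKO embryos 2 and 4 or dKO embryos 1, 3 and 4 was left out (adjusted p from 0.0509 to 0.0872). Pou3f3, which encodes a transcription factor of cortical progenitors and upper-layer neurons, begins 926 bases away and had means of 6.18, 6.17 and 5.51 TPM without a call. Pantr2, the long noncoding RNA on the other side of Pou3f3, had means of 6.64, 5.69 and 5.57 TPM and was called lower in cKO than in control after centring alone (log2 difference -0.45, adjusted p = 0.0494). Within a library, the difference in log2(TPM + 1) between Pantr1 and Pou3f3 was 4.12 in the controls, 4.25 in cKO and 4.00 in dKO on average, and the dKO embryos were below the cKO embryos without overlap (exact permutation p = 0.0286, adjusted p = 0.0714).

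Kcnq1ot1 (chr7:143203458-143296549, minus strand) was at 1.38, 2.14, 1.51 and 1.73 TPM in the controls, 1.71, 2.63, 2.55 and 2.16 in cKO, and 1.21, 1.20, 1.17 and 0.910 in dKO. All dKO embryos were below all others, and the control and cKO embryos overlapped. In dKO against cKO Kcnq1ot1 fell by 0.61 (SE 0.116, adjusted p = 0.00262), to 0.496 times the cKO mean. The call held after rescaling to an equal protein-coding sum (-0.48, adjusted p = 0.0361) and was lost after centring (-0.34, adjusted p = 0.128). In cKO against control the log2 difference was 0.28 (adjusted p = 0.0790), 0.03 after centring and -0.01 after quantile normalization. It passed the threshold without control embryo 2 (0.35, adjusted p = 0.0477) and without cKO embryo 1 (0.36, adjusted p = 0.0266). In dKO against control it was -0.34 (adjusted p = 0.121).

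Cdkn1c had means of 33.2 TPM in the controls, 40.02 in cKO and 37.9 in dKO and was not called in any comparison. Kcnq1, whose span holds Kcnq1ot1 on the opposite strand, Slc22a18 and Phlda2 were each at a mean of at most 0.237 TPM in every genotype. Of the listed genes on either side, Cd81, which encodes a membrane protein of the tetraspanin family, rose in cKO as deposited, from 14.0 to 21.4 TPM (log2 difference 0.58, adjusted p = 0.00404), but not after centring (adjusted p = 0.0729). The difference in log2(TPM + 1) between Kcnq1ot1 and Cdkn1c overlapped between all genotypes. The genes nearest to Kcnq1ot1 in pattern were Phip (r = 0.94), Ccser1 (r = 0.94) and Cspp1 (r = 0.94).

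Over the 22 listed neighbours of the 8 RNAs, 14 passed the filter. As deposited 3 of these were higher in cKO than in control (Cd81 and Tpst2 among them), where 34.3% of all genes were, with a median log2 difference of 0.14 against 0.25 for all genes. After centring 0 were higher and 1 was lower, Sox2, where 2.96% of all genes were lower.

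Of 25 other listed long noncoding RNAs, 23 were in the files and 16 passed the filter, Emx2os only through cKO. As deposited 7 of the 16 were higher in cKO than in control and 0 lower, where 43.4% of tested long noncoding genes were higher, with a median log2 difference of 0.29. After centring 3 were higher (Meg3, Rian and H19) and 3 were lower (Pantr2, Mir17hg and Dleu2), where 3.72% and 2.96% of all genes were. The 3 higher ones are imprinted RNAs. H19 was at 64.2, 57.7, 56.9 and 61.1 TPM in the controls, 115, 126, 116 and 139.7 in cKO, and 74.0, 55.9, 101 and 99.8 in dKO. Its cKO embryos were above all others. Rian rose from 20.8 to 41.1 TPM and was at 25.1 in dKO, and Meg3 rose from 3.28 to 7.47 TPM and was at 3.62 in dKO. Imprinted RNAs were not all called: Kcnq1ot1 was not, and Peg13 rose as deposited only (log2 difference 0.47, centred 0.22). Trp53cor1, known as lincRNA-p21 and induced by p53, was below the filter at 0.0338 to 0.0796 TPM in the controls, 0.226 to 0.434 in cKO and 0.00710 to 0.126 in dKO, with cKO above both.

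**Figure D4:**
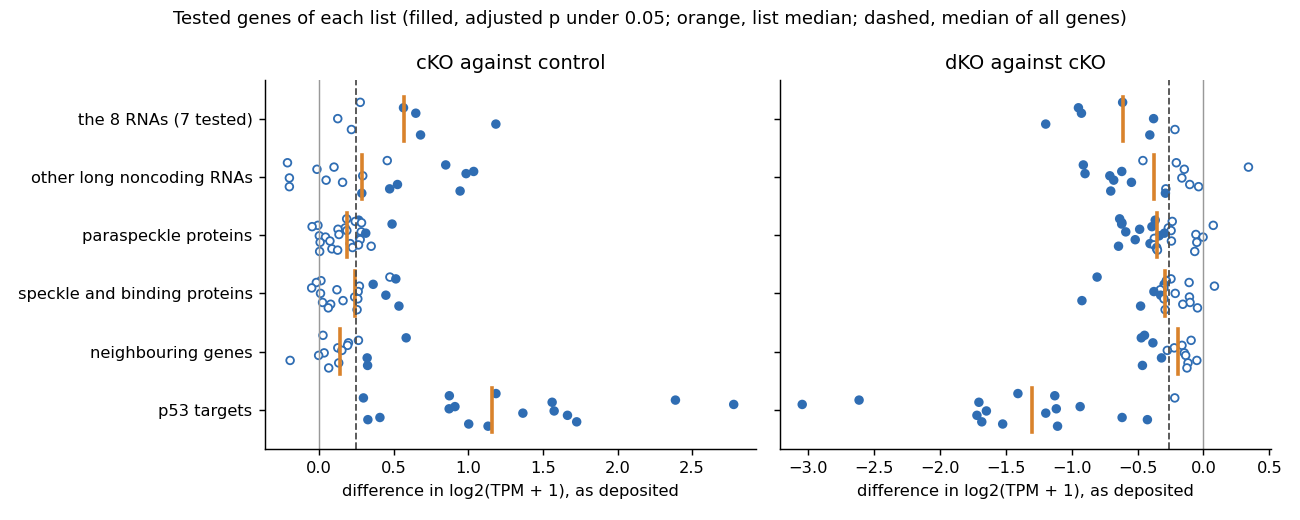
Difference in log2(TPM + 1) as deposited (x axis) for the tested genes of 6 lists (y axis) in cKO against control and in dKO against cKO; each point is 1 gene, filled at an adjusted p under 0.05, the orange line is the list's median and the dashed line is the median of all tested genes. In cKO against control the list medians are 0.57 for the 7 tested of the 8 RNAs, 0.29 for other long noncoding RNAs, 0.19 for paraspeckle proteins, 0.24 for speckle and binding proteins, 0.14 for neighbouring genes and 1.16 for the 16 tested p53 targets, 4 of which were tested only through their cKO values. Of the 7 RNAs, Pvt1 was tested only through its cKO values, and the median of all 8 was 0.49.

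Summed levels of several cell type marker lists were higher in cKO as deposited, in a comparison in which 32.7% of all tested genes were higher without overlap. In bulk tissue, a change in the number of cells of a type and a change in RNA per cell cannot be told apart. The summed level of 8 microglia markers ranged from 11.7 to 14.0 TPM in the controls, 43.2 to 63.8 in cKO and 13.2 to 18.8 in dKO, and 7 of the 8 were higher in every cKO embryo than in every control embryo. The 8 neuron markers summed to 229 to 253 TPM in the controls, 300.3 to 368 in cKO and 157 to 240.2 in dKO, and 5 of the 8 were higher in every cKO than in every control embryo. The 7 vessel markers summed to 9.69 to 12.8 TPM in the controls, 19.5 to 25.4 in cKO and 12.3 to 19.4 in dKO, with 6 of the 7 higher without overlap. The 8 radial glia markers summed to 253 to 279.7 TPM in the controls, 298 to 351 in cKO and 274 to 280.4 in dKO, with 2 of the 8 higher without overlap. By limma as deposited, 2 were called higher in cKO than in control, where 34.3% of all genes were. Hes5 was called lower (log2 difference -0.46, adjusted p = 0.0494). The 5 intermediate progenitor markers overlapped between genotypes in their sum, at 30.3 to 45.3, 28.7 to 38.8 and 25.3 to 33.6 TPM. As deposited, 1 of the 5, Neurog2, was lower in every cKO than in every control embryo (log2 difference -0.49, limma adjusted p = 0.0189). By limma, 128 of 11764 genes were called lower there. In dKO, 1 of the 5, Eomes, was lower than in every control embryo (-0.57, limma adjusted p = 0.0181), as were 8.44% of tested genes. The 5 meninges markers summed to 22.7 to 39.4 TPM in the controls, 40.9 to 49.1 in cKO and 35.8 to 52.5 in dKO, with 3 of the 5 higher in cKO without overlap. The 8 ventral telencephalon markers stayed low, at 1.73 to 2.45 TPM in the controls, 3.43 to 5.29 in cKO and 1.68 to 3.73 in dKO, with Gsx2 and Nkx2-1 listed at 0 in some libraries, and 4 of the 8 higher in cKO without overlap. The 4 diencephalon markers summed to 5.97 to 6.97, 7.06 to 9.72 and 5.62 to 7.38 TPM, with Gbx2 at 0 in some libraries. Most of this sum was Lhx9, with means of 5.93 TPM in the controls and 6.75 in cKO and overlapping ranges. Only 1 of the 4, Barhl2, was higher in cKO without overlap. The sum of the 9 red blood cell markers overlapped between all genotypes. Of these markers, 1 (Hbb-bs) was lower in every dKO than in every cKO embryo, as were 32.8% of tested genes. After centring, when 8.74% of tested genes were higher in cKO without overlap and 7.81% lower, 7 of the 8 microglia, 5 of the 7 vessel, 3 of the 7 hem and choroid plexus, 2 of the 5 meninges and 1 of the 8 neuron markers were higher. None of the radial glia, ventral or intermediate progenitor markers was then higher, and 2 in each of these lists were lower. Of the 4 diencephalon markers, 0 were higher and 1 was lower. Centring moves log2(TPM + 1) by a fixed amount per library, which weighs heavily on genes near 0 TPM, as most ventral markers are. As deposited, 0 of the 8 ventral markers were lower in cKO without overlap, so lower after centring does not show a decrease for that list. By limma after centring, the markers called higher in cKO were 6 of 7 tested for microglia (2 of which, Cx3cr1 and Csf1r, passed the filter only through cKO), 3 of 5 for vessels, 1 of 6 for hem and choroid plexus and 1 of 4 for meninges, where 3.72% of all genes were. For neurons it called 0 of 8 (2 higher at an unadjusted p under 0.05), and for radial glia 2 of 8 and for intermediate progenitors 2 of 5 were lower, where 2.96% of all genes were. The part of these cell types in the differences of the 8 RNAs was not tested.

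Set side by side over the 12 libraries after centring, the members differed in how alike they were. Malat1 was nearest to Kcnq1ot1 (Pearson r = 0.80), Miat (r = 0.74) and Pvt1 (r = 0.73). Pvt1 was also near Miat (r = 0.74) and Sox2ot (r = 0.71), and Sox2ot near Neat1 (r = 0.63). Rmst and Pantr1 had no positive value above 0.41 with any other member. Their most negative values were -0.56 (Pantr1 with Neat1) and -0.45 (Rmst with Miat). These values describe 12 libraries that hold 3 genotypes, so a difference between genotypes enters every pair.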

How the data were processed

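Stranded total RNA libraries of 12 pallia were sequenced on a NextSeq500, per the labels' protocols. The submitters' processing notes name HISAT2 and the build mm10. The quantification tool, annotation and use of strand in counting are not given in the sources used here. The deposited files give 1 TPM value per gene symbol. The unit was inferred from the values, which sum to 1000000 in every library. TPM keeps no depth, so no counting interval or floor is given. Small structural RNAs fill most of each library, so a change in them moves every other value.

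Values were analysed as log2(TPM + 1), with a pseudocount of 1 TPM, in limma 3.58.1 (R 4.3.3; lmFit, eBayes with trend), for the 11764 genes that averaged 1 TPM or more. All genotypes entered 1 fit, and a gene was called at an adjusted p (Benjamini-Hochberg) under 0.05. Neat1, below the filter, and 5 within-library pairs were tested by exact permutation over embryos, two-sided (scipy 1.17.1). Gene types and coordinates are from GENCODE M21 (GRCm38, the same assembly as mm10), in which 54106 of 54735 symbols matched. In simulated data for cKO against control over 11764 genes, the procedure recovered 185 of 200 genes changed by 1 on the log2 scale (92.5%), with 9 false calls. The simulation drew each gene separately and held no shift common to a library. Its count of false calls therefore does not give the error rate in these data. Alternatives were a pseudocount of 0.1, no filter, a filter at 5 TPM, median-shift centring, quantile normalization, rescaling to an equal protein-coding sum (factors from 0.798 to 1.10), fits of 2 groups, the replicate number as a block, and each embryo left out.

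The 8 RNAs and the gene lists were chosen with earlier results of these data known. Named genes are the members, members of the lists, annotated neighbours, and the 3 genes nearest to each member by Pearson r of centred values, with some results not reported here. Gm37376, Gm26953, Gm27627, Gm27753, Gm27588 and Gm27999 were named after their values were seen.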

Additional observations from a re-analysis of the deposited data

Results flagged for a closer look

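In 39 sets of 4 embryos examined (the members and partner pairs in each genotype), 2 held 1 embryo far from the other 3, where chance gives about 1.95 such sets. Malat1 in control was one: embryo 2, at 893 TPM, was above the other 3 (695 to 729 TPM) and its gap to the nearest was 0.829762 of the group's range, just past the limit of Dixon's test for 4 values. Kcnq1ot1 in dKO was the other: embryo 4, at 0.910 TPM, was below the other 3 (1.17 to 1.21 TPM), with a gap of 0.858721 of the range. Without dKO embryo 4 the log2 differences of Kcnq1ot1 kept their direction in every comparison it entered.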

How the results depend on the processing

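Counts are given in the order cKO against control, dKO against control, dKO against cKO. As reported, 4, 0 and 6 members were called, among 4163, 610 and 4636 genes. With the filter at 5 TPM, when fewer members were tested, there were 2, 0 and 3 among 1900, 294 and 2220 genes. Quantile normalization gave 3, 0 and 3 among 810, 1029 and 798 genes. Median-shift centring gave 2, 0 and 3 among 786, 992 and 698 genes, and protein-coding rescaling gave 3, 1 and 4 among 1539, 1080 and 1139 genes. With the filter at 0.5 TPM and centring, chosen after seeing the data, there were 2, 1 and 3 among 845, 1150 and 830 genes. In these scalings the split of all genes moved from 4035 higher and 128 lower in cKO to 443 and 367 (quantile), 438 and 348 (centring) and 1334 and 205 (rescaling). Without control embryo 1 and dKO embryo 2 the members' counts stayed at 4, 0 and 6, while 359 genes were called in dKO against control. Leaving out each embryo in turn gave 4 to 5, 0 to 0 and 5 to 6 members, among 2468 to 4325, 333 to 571 and 3082 to 4851 genes; the counts of genes moved by over 1.5 times in cKO against control without control embryo 2 or cKO embryos 2 or 4, in dKO against control without control embryos 3 or 4, and in dKO against cKO without cKO embryos 2 or 4.

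In the alternatives run, signs of member differences changed where the difference was not called. For Pvt1 in dKO against control (-0.01) it was 0.0764 under quantile normalization, 0.0076 under centring, 0.0096 under rescaling, 0.0048 with the 0.5 TPM filter and centring, 0.0447 without control embryo 1 and dKO embryo 2, and -0.0612 to 0.0396 with 1 embryo left out. For Rmst the centred values were -0.0319 (cKO against control) and 0.0526 (dKO against cKO), with the 0.5 TPM filter -0.0285 and 0.0464, and rescaling gave 0.0056 in dKO against cKO. In dKO against control Rmst was -0.0087 without control embryo 1 and dKO embryo 2, and -0.0940 to 0.119 with 1 embryo left out. Pantr1 in cKO against control was -0.12 under centring with either filter and -0.0294 under rescaling. Kcnq1ot1 was -0.0074 there under quantile normalization. Neat1 in dKO against cKO was 0.0032 after centring, although its exact permutation p was 0.0286 as deposited. Rmst in cKO against control had the same exact permutation p as deposited. Neat1 to Malat1 in cKO against control was 0.34 with a pseudocount of 0.1. Kcnq1ot1 to Cdkn1c ran from -0.14 to 0.16 in cKO against control, and Pvt1 to Myc from -0.230 to 0.0593 in dKO against control, with 1 embryo left out. With 1 embryo left out the exact test cannot go below 0.0571. The cause of these shifts was not tested.

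Same-numbered embryos had correlations of -0.0954 to 0.0745 in their deviations, so the numbers were not read as pairs. With the replicate block, 4, 0 and 5 members were called among 2979, 409 and 3608 genes. Depth is unknown, and values under 1 TPM, such as those of Neat1, are the least certain.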
